A study of Homo sapiens with 5 samples.

Results

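The mitochondrial ribosome, or mitoribosome, is the machine inside mitochondria that translates the few proteins encoded by mitochondrial DNA, all of them parts of the respiratory chain and of ATP synthase. Its RNA comes from mitochondrial DNA, but its proteins are encoded in the nucleus, made in the cytosol and imported. Genes named MRPL encode proteins of the large subunit, where peptide bonds are formed, and genes named MRPS encode those of the small subunit, where the messenger is decoded. The mRNAs of these genes were followed in LNCaP cells, an established androgen-responsive human prostate cancer line, after treatment with celastrol, a plant triterpenoid, or with its solvent DMSO. A gene was taken as a member where a probe set of the array named it alone and its symbol began with MRPL or MRPS and a number. This gave 50 of 12165 genes, 31 named for the large and 19 for the small subunit, from 62 probe sets. Where several probe sets named a gene, the brightest on average stood for it.

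The groups were 2 arrays of cells given 1.25 µM celastrol for 6 h and 3 arrays of cells given DMSO for 6 h, in RPMI medium with serum, each labelled a biological replicate. Total intensity ran from 4939400 to 5348500 over the 5 arrays. With 2 arrays a side precision is low, and since no label names separate cultures, p-values measure the spread between these arrays alone. A level is given as log2(intensity + 1). A difference is the mean of celastrol less that of DMSO in such levels, and for dim genes it comes out too small.

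One array, DMSO replicate 3 by its label, did not look like LNCaP RNA. Its median level over 8 luminal prostate markers was 4.42, against 9.59 to 9.67 on the other 4 arrays, and that over 9 markers of B lymphocytes was 10.9, against 4.20 to 4.37. The summed intensity of the luminal markers was 176 on it and 12348 to 13345 elsewhere, and that of the lymphocyte markers was 23001 on it and 752 to 825 elsewhere. Celastrol was therefore compared with DMSO replicates 1 and 2, and DMSO replicate 3 is described on its own. In whole-culture RNA, fewer cells with a transcript and less of it per cell cannot be told apart.

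MRPL18 stood apart from all other mitoribosomal genes. It encodes a large subunit protein of the central protuberance, the crest of the subunit, and in human cells a second, cytosolic form of the protein made under heat stress is known to aid translation of heat shock messengers. Its level was 10.87 and 10.91 on the celastrol arrays, against 9.93 and 9.92 on DMSO replicates 1 and 2. In intensity these are 1871 and 1929 with celastrol, against 971 and 970 with DMSO. Both celastrol values lay above both DMSO values by at least 0.945, while replicates differed by 0.044 with celastrol and by 0.0022 with DMSO. The means were 10.89 ± 0.031 with celastrol and 9.92 ± 0.0015 with DMSO (SD, n = 2 each), a 1.96-fold difference of 0.97 (SE 0.0257, 95% interval 0.89 to 1.05).

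With limma fitted over all 22215 probe sets, the adjusted p of MRPL18 was 0.0622, short of the threshold of 0.05 that 0.0164% of genes passed. With the dimmest 40% removed, where 1.03% of the genes kept passed, 0.558% on the higher side, the limma adjusted p was 0.0315 and MRPL18 was the 1 member called. Quantile normalization, median centring, log2(value + 16), the mean over a gene's probe sets and a filter on all 5 arrays also brought it under the threshold, with limma adjusted p from 0.0205 to 0.0462. The first 3 of these settings called 197, 139 and 43 of 22215 probe sets, against 2 in the main fit. The mean over probe sets called 51 of 12165 genes, and the filter on all 5 arrays 130 of 13329 probe sets. More of the array thus passed in each of them. The difference of MRPL18 lay between 0.95 and 1.12 in 13 alternative settings, whose limma adjusted p ran from 0.0205 to 0.876, the highest with all 5 arrays.

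The table of RefSeq start regions holds 3 windows for MRPL18, of which 1 has both paired forms described here, 1 has one of them and 1 has none. The first of these is shown because it holds letters of heat shock elements, the sites of heat shock factors, which are built of GAA units in alternating orientation. It is set beside that of MRPL48, the other member whose window holds both paired forms. Each stretch runs 5′ to 3′ on the gene's own strand, from 250 bases before an annotated start to 50 bases from it, in build GRCh38.p14, and capitals mark the matches. The window of MRPL18 is chr6:159789617-159789916 on the plus strand, and that of MRPL48 is chr11:73787624-73787923 on the plus strand.
MRPL18: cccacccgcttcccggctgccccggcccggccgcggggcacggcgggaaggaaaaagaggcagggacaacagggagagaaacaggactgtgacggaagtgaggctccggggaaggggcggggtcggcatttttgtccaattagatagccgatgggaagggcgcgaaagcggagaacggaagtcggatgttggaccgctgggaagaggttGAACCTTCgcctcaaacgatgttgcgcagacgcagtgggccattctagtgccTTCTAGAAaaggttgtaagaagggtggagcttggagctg
MRPL48: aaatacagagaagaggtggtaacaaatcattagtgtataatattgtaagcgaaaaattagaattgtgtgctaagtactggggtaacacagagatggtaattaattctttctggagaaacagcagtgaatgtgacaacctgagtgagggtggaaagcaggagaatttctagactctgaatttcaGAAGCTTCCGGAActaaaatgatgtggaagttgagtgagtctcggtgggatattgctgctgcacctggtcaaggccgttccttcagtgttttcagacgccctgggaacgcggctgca
In MRPL18 the capitals are GAACCTTC, which begins 41 bases before the start, and TTCTAGAA, which begins at base 12 from it. In MRPL48 they are GAAGCTTCCGGAA, a run of 3 units that begins 67 bases before the start and overlaps a match of the ETS motif given below. The paired form GAANNTTC, searched on both strands, was in 8.93% of the members' 56 windows and in 6.77% of all 35116 windows. For TTCNNGAA the shares were 8.93% and 7.74%, and for both in 1 window 3.57% and 1.02%. The run of 3 units, which is GAANNTTC followed after any 2 letters by GAA, was in 1.79% of the members' windows and 0.49% of all. Counting only genes on the array, the second share was 5.46% for GAANNTTC and 6.79% for TTCNNGAA. It was 0.819% for both in 1 window and 0.427% for the run of 3 units. A match is a description of letters and not of a bound site.

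MRPL48, a protein found in mitochondrial but not in bacterial ribosomes, did not share the difference of MRPL18. Its level was 8.18 and 8.17 with celastrol, against 8.17 and 8.17 with DMSO, a difference of 0.0045 with a 95% interval of -0.058 to 0.067. Its groups overlapped, and the interval leaves out a difference of the size seen for MRPL18.

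MRPL18 has a head-to-head neighbour, TCP1, which encodes a subunit of the cytosolic chaperonin CCT and starts on the opposite strand nearby. TCP1 stood at 11.43 and 11.35 with celastrol, against 11.08 and 11.06 with DMSO, without overlap. The difference was 0.32 (SE 0.0391, limma adjusted p = 0.145), which did not pass. On DMSO replicate 3 the pair differed in direction, MRPL18 at -0.46 and TCP1 at 0.060 relative to the mean of DMSO replicates 1 and 2.

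**Figure D1:**
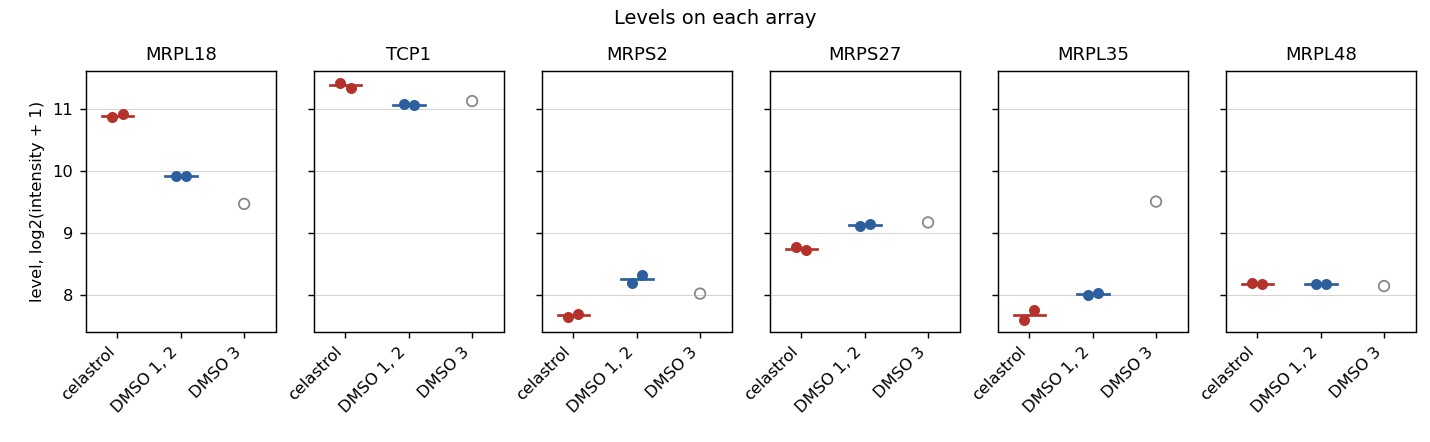
Levels as log2(intensity + 1) on each array for MRPL18, its neighbour TCP1, MRPS2, MRPS27, MRPL35 and MRPL48. Points are arrays, bars are group means of 2 arrays, and the open point is DMSO replicate 3; MRPL18 and TCP1 are higher with celastrol, MRPS2, MRPS27 and MRPL35 lower, and MRPL48 level.

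Apart from MRPL18, most mitoribosomal mRNAs were slightly lower with celastrol, and none of these differences passed the test over all probe sets. Of the 50 members, 38, or 76%, had a difference below 0, 11 above 0 and 1 at 0, where 49.7% of all genes were below 0. Among the brightest 25% of probe sets 59.5% of genes were below 0, against 77.3% of members there. In lists described below the share was 74.4% for large and 79.2% for small cytosolic ribosomal proteins and 83.9% for complex I. It was 42.9% for mitochondrial chaperones, proteases and import. A lean below 0 is therefore not particular to mitoribosomal genes. In 26 members both celastrol values lay under both DMSO values, which is 52% of members against 19.4% of all genes. In 2 members, MRPL18 and MRPS30, both lay above, which is 4% against 15.1% of all genes. Most members are bright on this array, and 44 of 50 were among the brightest 25% of probe sets. There 24 of the 44 were lower without overlap, against 32.7% of all genes at that brightness.

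The median difference over members was -0.11, with 25% of them under -0.20 and 25% over -0.0033. The median over all genes was 0, and over genes kept by the filter on dim probe sets it was -0.018. By array, the median member stood at -0.090 and -0.14 on the celastrol arrays relative to the DMSO mean, against -0.0061 and 0.0061 on DMSO replicates 1 and 2. The last pair mirror each other because the mean is their own.

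The limma test, adjusted by Benjamini-Hochberg across the whole array, called 0 of the 50 members. Without adjustment, 12 members, or 24%, had a limma p under 0.05 and were lower, where 8.75% of all genes, 12.6% of genes kept by the filter on dim probe sets and 15.8% of the brightest 25% were. MRPL18 alone did so on the higher side, where 6.29% of all genes did.

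**Figure D2:**
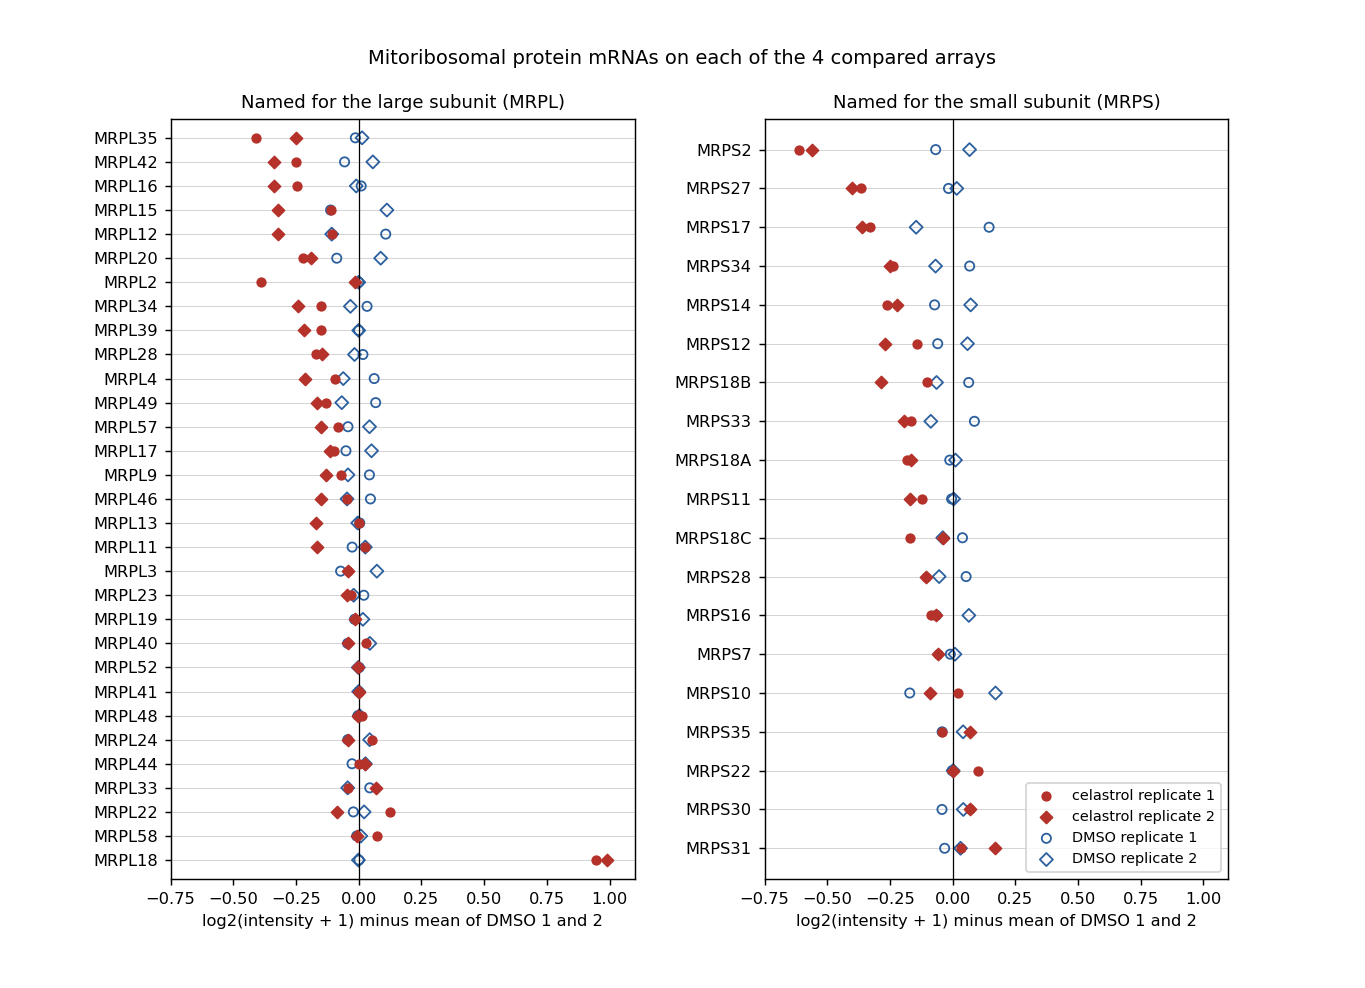
Each of the 31 MRPL (left) and 19 MRPS members (right) on the 4 compared arrays, as log2(intensity + 1) minus the mean of DMSO replicates 1 and 2. Filled red points are celastrol arrays and open blue points DMSO arrays, and members run from the lowest to the highest difference; MRPL18 lies near 0.97 and MRPS2 at -0.59.

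Among small subunit genes MRPS2 had the largest difference. Its protein is the counterpart of a bacterial ribosomal protein at the back of the small subunit. MRPS2 stood at 7.64 and 7.69 with celastrol, against 8.19 and 8.32 with DMSO replicates 1 and 2. The groups did not overlap, and the difference was -0.59 (SE 0.0619, 95% interval -0.79 to -0.39, limma adjusted p = 0.129), or 0.666-fold. MRPS27, a pentatricopeptide repeat protein that binds RNA, stood at 8.76 and 8.73 with celastrol, against 9.11 and 9.15 with DMSO. Its difference of -0.38 (SE 0.0269, 95% interval -0.47 to -0.30) had the smallest p of the lower members, with a limma adjusted p of 0.0949, and 0.0611 once the dimmest were removed. On DMSO replicate 3 MRPS27 was at 9.17, beside the other DMSO arrays.

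The values of MRPS17, one of the conserved RNA-binding proteins of the small subunit, were 8.52 and 8.49 with celastrol, against 8.997 and 8.71 with DMSO. Its difference of -0.34 rested on DMSO arrays that themselves lay 0.29 apart. For MRPS34, which the small subunit needs to be stable, the values were 8.38 and 8.37 with celastrol, against 8.69 and 8.55 with DMSO. MRPS14 stood at 8.61 and 8.65 with celastrol, against 8.80 and 8.95 with DMSO. These 2 genes had differences of -0.24 each and limma adjusted p of 0.286 and 0.314.

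MRPS12, the counterpart of the bacterial protein at the decoding centre in which streptomycin resistance arises, stood at 9.54 and 9.41 with celastrol, against 9.62 and 9.74 with DMSO. Its difference was -0.20, with no overlap. The other 13 genes named MRPS had differences between -0.19 for MRPS18B and 0.10 for MRPS31. In all, 12 of the 19 MRPS genes, or 63.2%, were lower without overlap, against 19.4% of all genes and 32.7% of the brightest 25%, while 1 was higher and 6 overlapped.

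The 3 MRPS18 paralogues do not share a place. MRPS18B and MRPS18C belong to the small subunit, while MRPS18A sits in the large one, as does MRPS30. MRPS18A stood at 7.42 and 7.44 with celastrol, against 7.59 and 7.61 with DMSO, a difference of -0.17 (SE 0.0217, limma adjusted p = 0.147). MRPS18B stood at 8.50 and 8.32 with celastrol, against 8.67 and 8.54 with DMSO, a difference of -0.19 (SE 0.0935). MRPS18C was near the floor of the array, at 4.05 and 4.18 with celastrol and 4.26 and 4.18 with DMSO. MRPS30, at 7.74 and 7.74 with celastrol and 7.63 and 7.72 with DMSO, was the one MRPS gene above both DMSO values, by 0.027 at the closest. Its difference of 0.069 had a 95% interval of -0.057 to 0.20.

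In the large subunit MRPL35, MRPL42 and MRPL16 had the lowest differences. MRPL35, one of the small proteins with a bacterial counterpart, stood at 7.59 and 7.76 with celastrol, against 7.99 and 8.02 with DMSO, a difference of -0.33 (SE 0.0694). The ID of its probe set carries the maker's mark for possible cross-hybridisation, and on DMSO replicate 3 it read 9.50. MRPL42, specific to mitochondria, stood at 9.01 and 8.92 with celastrol, against 9.20 and 9.31 with DMSO, a difference of -0.29 (SE 0.0616). MRPL16, the counterpart of a bacterial protein close to the peptidyl transferase centre, stood at 8.95 and 8.86 with celastrol, against 9.20 and 9.18 with DMSO. Its difference was -0.29 (SE 0.0425, limma adjusted p = 0.17), and its groups did not overlap.

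Further large subunit genes that were lower without overlap were MRPL20 at -0.21, MRPL2 at -0.20 and MRPL34 at -0.19. For MRPL2 that rests on the closest celastrol value lying 0.017 under DMSO, since celastrol replicates 1 and 2 read 6.66 and 7.04 and both DMSO arrays 7.05. In all, 14 of the 31 MRPL genes, or 45.2%, were lower without overlap, against the same 19.4% and 32.7%. MRPL18 alone was higher, and 16 overlapped.

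Stalk genes, whose proteins form the arm that recruits translation factors, gave no separation. MRPL12, which is also known to bind the mitochondrial RNA polymerase, stood at 8.91 and 8.69 with celastrol, against 9.13 and 8.91 with DMSO. The higher celastrol and the lower DMSO value coincided, and the difference of -0.22 had an SE of 0.127. MRPL11 had a difference of -0.070. At the tunnel exit, where the new protein emerges towards the inner membrane, 4 members had a median of -0.018, from -0.11 for MRPL17 to 0.019 for MRPL22. In the central protuberance the 5 members had a median of 0.0045, and MRPL18 was the one without overlap. MRPL58, a hydrolase that frees peptides from stalled mitoribosomes, stood at 9.10 and 9.02 with celastrol, against 9.02 and 9.03 with DMSO, a difference of 0.033.

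Setting the subunits against each other, the median difference was -0.099 for the 31 MRPL and -0.15 for the 19 MRPS genes. Of the MRPL genes 23, or 74.2%, were below 0, and of the MRPS genes 15, or 78.9%. The large median minus the small one was 0.075 and 0.036 on celastrol replicates 1 and 2, against 0.011 and -0.011 on DMSO replicates 1 and 2. This gap of 0.047 between medians is smaller than the distance between the celastrol arrays for the large subunit, whose medians were -0.047 and -0.13. With MRPS18A and MRPS30 counted by their place, the medians stayed at -0.099 for 33 large and -0.15 for 17 small subunit genes.

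The members were also split by ancestry. The 32 members with a bacterial counterpart had a median of -0.13 with 28 below 0, and 19 of them, or 59.4%, were lower without overlap, against 19.4% of all genes and 32.7% of the brightest. The 18 members specific to mitochondria had a median of -0.0049 with 10 below 0, and 7, or 38.9%, were lower without overlap. That last median is pulled up by MRPL41, MRPL44 and MRPL52, which read near the floor of the array. Among members in the brightest 25% of probe sets the medians were -0.11 for 29 with a bacterial counterpart and -0.099 for 15 specific to mitochondria, so the gap in medians nearly closes there. The shares below 0 still differed there, with 25 of the 29 against 9 of the 15. No test was made over members, since they share the same 4 arrays.

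**Figure D3:**
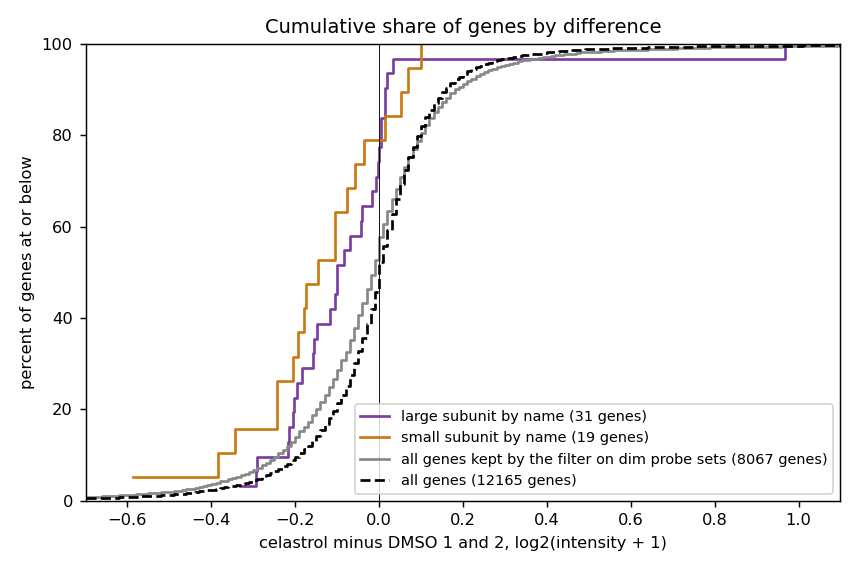
Cumulative percent of genes (vertical) at or below each difference between celastrol and DMSO replicates 1 and 2 (horizontal, log2 scale) for 31 MRPL genes, 19 MRPS genes, 8067 genes kept by the filter on dim probe sets and all 12165 genes. At -0.20 the curves stand at 22.6% for MRPL, 31.6% for MRPS, 14.1% for the kept genes and 9.65% for all genes, while at -0.34 the MRPL curve is still at 0% and all genes are at 3.50%; the last step of the MRPL curve is MRPL18.

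Where several probe sets name a member, they serve as a second reading of the same RNA. This was so for 9 members. All probe sets of MRPL20, MRPL57, MRPL9, MRPS14, MRPS18A and MRPS18B were below 0. Barely so were 1 of 3 for MRPL57, at -0.00040, the second of MRPL20, at -0.0050, and the second of MRPL9, at -0.020. The second probe set of MRPS14 stood at 5.37 and 5.19 with celastrol, against 5.68 and 5.56 with DMSO, a difference of -0.34 beside -0.24 for the brighter one. MRPS12 had 3 of 4 probe sets below 0. Probe sets differed in sign for MRPS11, at -0.15 and 0.055, and for MRPS31, at 0.10 and -0.15, so no direction can be given for MRPS31. Apart from the brightest, the probe sets of MRPS12 were dim, at levels from 4.02 to 4.90 on the 4 compared arrays. The second of MRPS11 was dim as well, at 4.97 to 5.08. For these 2 genes the signs of the dim probe sets therefore say little. A further 3 probe sets name MRPL43 or MRPS15 together with an unrelated gene and were not used.

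What the members' start regions share was looked at for the 44 members with 56 windows in the RefSeq table, and 2 windows are shown to let the letters be seen. The ETS motif CCGGAAG, the core bound by factors such as GABPA, and the YY1 motif AAGATGGCG were searched on both strands. Both are known from promoters of nuclear genes for mitochondrial proteins. MRPS18A is read from chr6:43687742-43688041 on the minus strand and MRPL16 from chr11:59810729-59811028 on the minus strand, both in GRCh38.p14 and with matches in capitals.
MRPS18A: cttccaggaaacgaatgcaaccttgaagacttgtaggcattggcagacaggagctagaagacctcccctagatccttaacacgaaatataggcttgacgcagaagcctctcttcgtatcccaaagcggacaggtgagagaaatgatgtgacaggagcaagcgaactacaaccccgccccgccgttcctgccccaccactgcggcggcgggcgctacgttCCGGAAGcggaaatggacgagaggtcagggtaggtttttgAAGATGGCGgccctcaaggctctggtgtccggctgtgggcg
MRPL16: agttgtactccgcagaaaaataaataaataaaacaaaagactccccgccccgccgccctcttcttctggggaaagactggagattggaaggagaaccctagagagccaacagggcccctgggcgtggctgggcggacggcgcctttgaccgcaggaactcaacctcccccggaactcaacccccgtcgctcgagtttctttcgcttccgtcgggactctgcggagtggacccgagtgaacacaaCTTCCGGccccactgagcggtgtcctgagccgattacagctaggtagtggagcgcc
In MRPS18A the ETS match begins 31 bases before the start and the YY1 match at base 10 from it. In MRPL16 the ETS match, CTTCCGG as read on this strand, begins 6 bases before the start. The ETS motif was in 37.5% of the members' windows and in 10.3% of all windows, and the YY1 motif in 14.3% and 1.75%. The shorter NRF1 motif GCGCATGC was in 8.93% and 3.05%, and the full NRF1 palindrome, which holds the shorter one, in 1.79% and 1.24%. The shares were 30.4% and 34.6% for CCAAT and 8.93% and 7.26% for CACGTG. Counting only genes on the array, the second share was 13.1% for ETS, 2.85% for YY1 and 3.82% for the shorter NRF1 motif. It was 1.58% for the full palindrome, 35.2% for CCAAT and 8.68% for CACGTG. Members with the ETS motif had a median difference of -0.044, with 13 of 19 below 0, and members without it -0.12, with 19 of 25 below 0. With either paired heat shock form, 7 members including MRPL18 and MRPL48 had a median of 0.013, with 2 below 0. The 37 members without it had a median of -0.11, with 30 below 0. Members with CCAAT or CACGTG lay at -0.15 each, against -0.099 without. No link between a motif and the differences was tested.

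Of the members, 17 have a head-to-head neighbour, and 10 such pairs were measured on both sides. In 7 of the 10 pairs both genes had differences of the same sign, but MRPL18 with TCP1 was the one pair in which both genes were without overlap in the same direction. MRPS27 at -0.38 was paired with PTCD2 at -0.23, MRPS12 at -0.20 with SARS2, a mitochondrial seryl-tRNA synthetase, at 0.093, and MRPS2 at -0.59 with PIERCE1 at -0.020. MRPL46 and MRPS11 neighbour each other and were at -0.099 and -0.15. MRPL9 and OAZ3 differed in sign without overlap, at -0.10 and 0.14. These pairs were looked up after the values were known.

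Other genes needed to build and run the mitoribosome were looked at as lists. In every list given here limma called 0 genes, over all probe sets and with the dimmest 40% left out. Their counts are to be read against all genes, of which 19.4% were lower and 15.1% higher without overlap and 8.75% were lower with an unadjusted limma p under 0.05. Among the brightest 25% the shares on the lower side were 32.7% and 15.8%. Of 3 further mitoribosomal proteins with other names, PTCD3 was at -0.30 and DAP3 at -0.25, both without overlap. Among 16 assembly and rRNA modification factors, 7, or 43.8%, were lower and 0 higher without overlap, with a median of -0.095, and 5, or 31.2%, had an unadjusted limma p under 0.05, all lower. RCC1L, a guanine nucleotide exchange factor-like protein of mitoribosome assembly, stood at -0.67 (SE 0.0753, limma adjusted p = 0.137), METTL17 at -0.39 and the rRNA methyltransferase MRM3 at -0.24. Among 18 genes of mitochondrial transcription and RNA processing, 10, or 55.6%, were lower and 0 higher without overlap, with a median of -0.11, and 8, or 44.4%, had an unadjusted limma p under 0.05, all lower. ELAC2, which trims tRNA ends, was at -0.40, TFAM, the packaging and transcription factor of mitochondrial DNA, at -0.58, and the elongation factor TEFM at -0.20.

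Mitochondrial aminoacyl-tRNA synthetases and their partners, 16 in all, had 6 lower and 1 higher without overlap and a median of -0.049. The share on the lower side, 37.5%, is near the 32.7% of bright genes. TARS2 was at -0.44, HARS2 at -0.51 and GATB at -0.16. The higher one was GARS1 at 0.48, which charges tRNA in both the cytosol and mitochondria. Of 9 translation factors 3 were lower and 0 higher, with TACO1, an activator of cytochrome oxidase translation, at -0.56, TSFM at -0.30, and GFM1 at -0.058 near the floor. Mitochondrial chaperones, proteases and import genes lay on both sides, with 7 lower and 6 higher of 21 and a median of 0.025. There HSPE1 was at 0.39, HSPD1 at 0.28 and HSPA9 at 0.18, against -0.45 for AFG3L2, a subunit of the inner membrane protease that also processes a mitoribosomal protein, -0.15 for TOMM20 and -0.090 for CLPX.

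Of nuclear factors that act on mitochondrial genes, GABPB1 was at 0.28, YY1 at 0.18 and MYC at -0.13, with 2 of 7 higher and 1 lower without overlap. Cytosolic ribosomal proteins had medians nearer 0. These were -0.014 for 39 large subunit genes, with 9 lower and 3 higher without overlap, and -0.028 for 24 small subunit genes, with 6 lower and 0 higher. RPS9 at -0.11, RPS20 at -0.11 and RPL11 at -0.098 were the lowest named, with RPL14 at 0.10 and RPL27A at 0.32 above 0. Complex I of the respiratory chain, which holds subunits made by the mitoribosome, had 9 lower and 0 higher of 31 nuclear genes and a median of -0.043. Its share of 29.03% lower lies between the 26.5% of genes kept by the filter and the 32.7% of bright genes, with NDUFA3 at -0.21, NDUFS8 at -0.20 and NDUFB4 at -0.13.

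**Figure D4:**
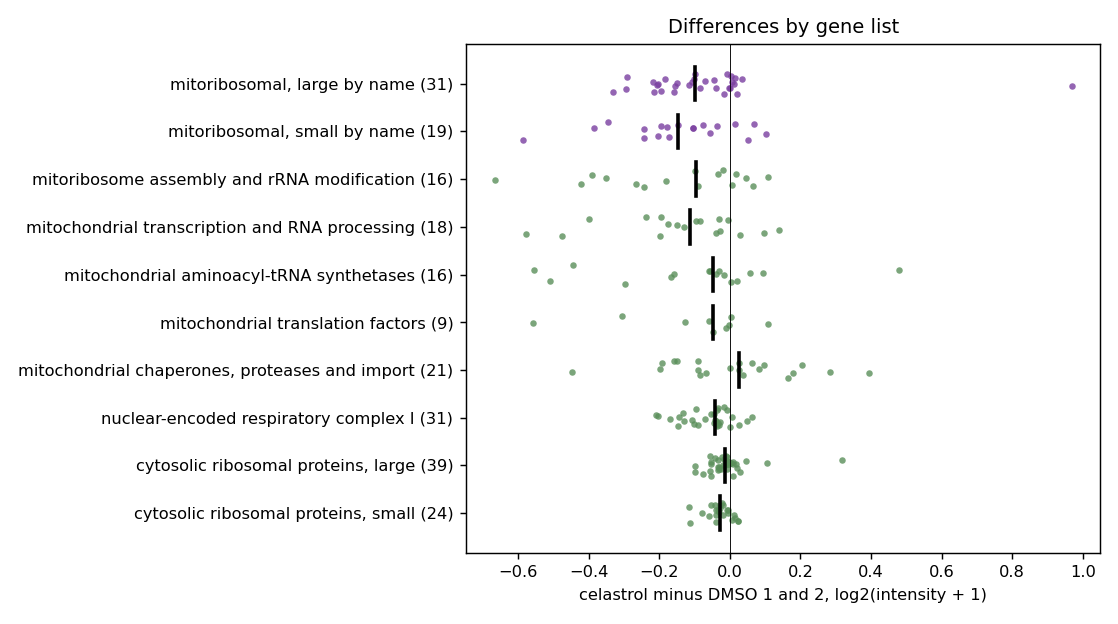
Difference between celastrol and DMSO replicates 1 and 2 (horizontal, log2 scale) for each measured gene (points, spread vertically to be seen) of the 2 mitoribosomal sets and 8 other gene lists, with the number of genes in parentheses. Black bars are medians, from -0.15 for MRPS genes to 0.025 for mitochondrial chaperones, proteases and import.

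On DMSO replicate 3, whose markers were those of B lymphocytes, the median over mitoribosomal mRNAs was slightly under that of the other DMSO arrays. Single members differed more, from -0.93 for MRPL24 to 1.51 for MRPL11, and shifts in opposite directions cancel in the median. The median member was at -0.054 relative to the mean of DMSO replicates 1 and 2, and 2 members, or 4%, were at least 2-fold higher and 0 at least 2-fold lower, against 8.77% and 12% of all genes. Among the brightest 25% of probe sets the median gene was at -0.24. There 364 of 3756 genes were at least 2-fold higher and 922 at least 2-fold lower, against 2 and 0 of 44 members. The 2 were MRPL11, at 8.62 on it against 7.08 and 7.13, and MRPL35, at 9.50 on it against 7.99 and 8.02. MRPL39 was next, at 9.83 against 8.94 and 8.94. On the lower side were MRPL24, at 7.75 against 8.63 and 8.72, MRPS35, at 8.16 against 9.02 and 9.10, and MRPL57, at 10.61 against 11.33 and 11.41. The large median minus the small one was 0.0017 on this array. This is 1 array, and no test was made.

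**Figure D5:**
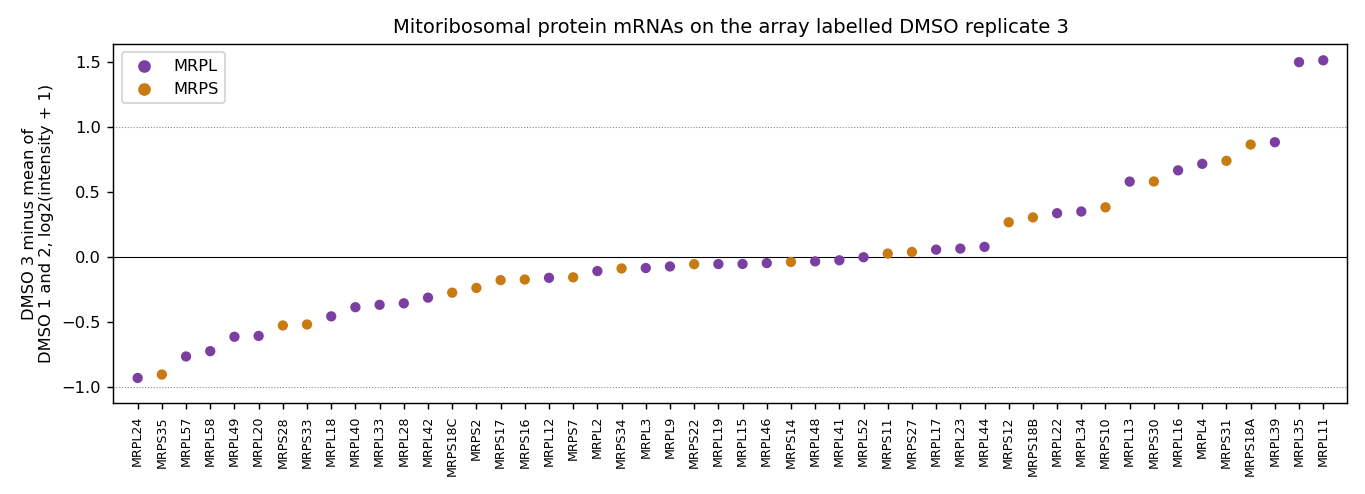
DMSO replicate 3 minus the mean of DMSO replicates 1 and 2 (vertical, log2 scale) for the 50 members in rising order, purple for MRPL and orange for MRPS genes, with dotted lines at 2-fold. MRPL35 and MRPL11 lie above the upper line and no member lies under the lower one.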

How the data were processed

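The authors deposited linear intensity values, 1 for each array and probe set. Per the submitters' processing notes RMA was used; its version and between-array steps are not given in the sources used here. RNA was extracted with Trizol and labelled as biotinylated cRNA for Affymetrix arrays, per the labels' protocols. The description field of the DMSO samples speaks of celastrol; titles and treatment protocols were followed. All 5 value columns were used.

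The deposited intensities were converted here to log2(value + 1) and not normalized again. The annotation gives 1 gene for 19724 of 22215 probe sets, and all 50 members' symbols matched RefSeq by Entrez ID. The test was limma 3.58.1 (R 4.3.3) with lmFit and eBayes on celastrol replicates 1 and 2 and DMSO replicates 1 and 2, two-sided, Benjamini-Hochberg adjusted over all probe sets, with a threshold of 0.05. On 4 simulated arrays the test called 34.6% of set changes of 0.5, and 43.2% with the dimmest 40% left out. For changes of 1 it called 78.4% and 81.6%. Smaller changes than 0.5 were not simulated, so 0 members called does not exclude small differences. A gene is its brightest probe set over all 5 arrays. Tied values count as overlap.

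Members, lists, roles and tests were chosen with earlier results of these data known. Named were the 12 lowest and up to 8 highest members without overlap, members of special place or role, those with several probe sets, 3 a direction on DMSO replicate 3, and up to 3 a direction in each list. MRPS36 was named in that rule and is not analysed here. Motifs, neighbours, MRPL48 and the split of motif holders were chosen after seeing the values. A neighbour starts on the opposite strand within 1000 bases upstream or 200 bases into the gene. Alternatives changed arrays, filter, normalization, pseudocount, variance model, probe set rule, pairing and subunit assignment. Replicate numbers were not used as pairs in the main fit: deviations of same-numbered arrays correlated at -0.0197. That value shows no shared shift by number, but cannot tell whether same-numbered cultures were handled together.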

Additional observations from a re-analysis of the deposited data

How the results depend on the processing

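The median difference over all members stayed between -0.14 and -0.084 in all settings, and members below 0 numbered 35 to 42 of 50, or 37 of 47 with dim probe sets left out. Among values of named members in alternative settings, 237 kept their direction and their side of the threshold and 2 reversed direction. A further 6 newly passed the threshold, all of MRPL18. On all 5 arrays and with the replicate block no probe set was called, and with 1 array left out a group holds 1 array. Keeping the side of the threshold in those settings says nothing of stability. The count of called members was 1 instead of 0 with the dimmest 40% left out by the mean of 4 or of 5 arrays, with quantile normalization, median centring and log2(value + 16), and with the mean over a gene's probe sets. Those settings also called more of the array, from 43 to 197 probe sets or genes, against 2 probe sets in the main fit. On all 5 arrays 16 members were lower and 1 higher without overlap, the subunit gap was 0.092, and MRPS30 turned to -0.12. MRPS30's position above DMSO is lost there, while MRPL18 stood at 1.12 (limma adjusted p = 0.876). Against 2 in the main setting, members higher without overlap numbered 6 with quantile normalization and 8 with median centring. The count on the higher side, 4% of members against 15.1% of all genes in the main setting, thus depends on the setting. Shares of all genes without overlap were not counted with other arrays or another normalization. The counts of members given here for those settings therefore have no such share beside them. The small subunit median was -0.11 with the mean over probe sets. With 1 of the 4 arrays left out, no probe set of the array was called, so the 0 members called there say nothing of stability; members lower ran from 28 to 32 and higher from 2 to 7, the overall median from -0.14 to -0.090, the large median from -0.13 to -0.047, the small one from -0.17 to -0.12 and the subunit gap from 0.036 to 0.075. MRPL58 ran from -0.0082, without celastrol replicate 1, to 0.074, and MRPL18 ran from 0.95 to 0.99. The cause of these shifts was not tested. Fewer arrays make overlap rarer by construction. With the replicate block 0 members and 0 probe sets of the array were called, likewise on all 5 arrays. The replicate differences of the groups correlated at r = -0.0197, so no shift shared by replicate number was seen. Whether the numbers mark pairs cannot be told from this, and overlap has no value in the replicate block fit. Identical values between arrays, 17.1% to 19.3% of probe sets in pairs of the 4 arrays, limit what dim members such as MRPL41, MRPL44, MRPL52 and MRPS18C can show. Brighter members hold such ties as well. Both celastrol arrays read 10.72 for MRPL3, 9.29 for MRPS7, 8.96 for MRPS28 and 7.74 for MRPS30, and both DMSO arrays 8.94 for MRPL39. The SD within that group is 0 for these members, so their SE and overlap are limited too.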
